A study of Mus musculus with 12 samples.

Results

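Perforin and the granzymes A, B, K and M, encoded by Prf1, Gzma, Gzmb, Gzmk and Gzmm, were picked by symbol from each expression matrix. They are 5 of 32285 genes, and all 5 were measured in the 30749 cells that the deposited cell table lists. The cells were CD4 and CD8 T cells sorted from MCA205 fibrosarcomas grown under the skin of C57Bl/6 mice, and each of 6 mice gave one single-cell library read from the 5′ end of the transcripts together with its T cell receptors. The 3 anti-ACBP mice had received an antibody that neutralises the acyl-CoA binding protein (ACBP, also called DBI). Its dose was 2.5 mg/kg, repeated at intervals of 2 days, with the first given 2 days ahead of oxaliplatin and the last 1 day ahead of anti-PD1. The 3 isotype mice had received an IgG2a control antibody on the same schedule. Mice of both groups had been injected with 300000 MCA205 cells, given 10 mg/kg of oxaliplatin, a platinum drug, 8 days later, and given 200 µg of anti-PD1, which blocks an inhibitory T cell receptor, after 8 more days. Tumours were taken 2 days after that. No mouse went without the drugs, so the values show T cells under chemo-immunotherapy in both groups. CD4 and CD8 cells were mixed 1:1 before 10000 cells were loaded, and counts of the lineages therefore reflect the sort.

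Granzymes are serine proteases that cytotoxic lymphocytes store with perforin in lytic granules. After release, perforin forms pores in the membrane of the target cell, and granzymes enter through them. Granzyme B cuts caspases and other substrates behind aspartate, granzymes A and K cut behind basic residues, and granzyme M cuts behind methionine or leucine. In tumours, granzyme B and perforin are read as signs of effector CD8 T cells, granzyme K is often found in less differentiated CD8 T cells, and regulatory T cells can also use granzyme B.

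The genes lie on 3 mouse chromosomes (GRCm38.p6, the mm10 build, RefSeq annotation), and each is protein-coding. Prf1 is at chr10:61297751-61304684 on the plus strand and Gzmm at chr10:79689020-79695261 on the plus strand. Gzma at chr13:113093824-113100981 and Gzmk at chr13:113171630-113180965 are neighbours on the minus strand of chromosome 13. Gzmb is at chr14:56258836-56262334 on the minus strand. The 250 bases before the annotated start are shown for Gzmb, Gzma and Gzmk, because the cluster, class and antibody results are described most fully for these granzymes. Capitals mark matches, on either strand, to 7 searched motifs: RUNX (TGTGGT), AP-1 (TGAGTCA), a T-box motif, CREB/ATF (TGACGT), STAT (TTCNNNGAA), NFAT (GGAAAA) and a TATA box (TATAAA or TATATAA).

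Gzmb promoter, chr14:56262335-56262584, minus strand: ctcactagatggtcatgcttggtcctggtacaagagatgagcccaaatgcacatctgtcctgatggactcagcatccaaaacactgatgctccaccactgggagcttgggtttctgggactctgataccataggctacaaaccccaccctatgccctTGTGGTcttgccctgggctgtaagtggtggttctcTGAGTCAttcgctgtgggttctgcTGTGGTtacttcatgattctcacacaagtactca

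Gzma promoter, chr13:113100982-113101231, minus strand: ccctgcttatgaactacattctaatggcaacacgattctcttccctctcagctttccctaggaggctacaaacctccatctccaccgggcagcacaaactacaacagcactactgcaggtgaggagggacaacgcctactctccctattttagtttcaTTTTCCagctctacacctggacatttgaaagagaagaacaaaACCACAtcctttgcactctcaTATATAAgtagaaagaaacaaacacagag

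Gzmk promoter, chr13:113180966-113181215, minus strand: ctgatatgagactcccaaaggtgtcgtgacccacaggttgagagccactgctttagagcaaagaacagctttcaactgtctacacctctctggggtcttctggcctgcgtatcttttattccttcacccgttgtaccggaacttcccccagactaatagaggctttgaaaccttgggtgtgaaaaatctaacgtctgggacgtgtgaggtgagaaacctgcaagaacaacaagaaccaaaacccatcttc

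The Gzmb window held RUNX matches 93 to 88 and 34 to 29 bases before the start and an AP-1 match 58 to 52 bases before it, with no overlap among them. The Gzma window held an NFAT match 92 to 87, a RUNX match 50 to 45 and a TATA match 29 to 23 bases before the start. The letters searched were not found in the Gzmk window. Of 32851 promoter windows of the same length in RefSeq, 14.0% held the RUNX letters, 4.46% the AP-1 letters, 20.4% the NFAT letters and 13.8% a TATA match. The other motifs were in 1.51% (T-box), 6.47% (CREB/ATF) and 7.02% (STAT) of windows. A match describes these letters alone.

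Libraries held 2923 to 7238 listed cells and 27791735 to 65519423 UMIs in them, with a median of 4516 to 7682 UMIs per cell. A UMI marks one captured RNA molecule. Between 15 and 63 cell barcodes were shared by any pair of libraries, at most 1.10% of the smaller library. The sort was checked against lineage transcripts. By its own UMIs a cell was called CD8 (more Cd8a plus Cd8b1 than Cd4, 17379 cells), conventional CD4 (more Cd4 than Cd8, no Foxp3 UMI and outside cluster 2, 7319 cells) or regulatory (more Cd4 than Cd8 with a Foxp3 UMI or in cluster 2, 3433 cells), while 2618 cells without a lineage majority were in no class. Foxp3 encodes the defining transcription factor of regulatory T cells, and cluster 2 was the one rich in it. Macrophage, neutrophil and fibroblast marker sums stayed at or below 2.26, 0.54 and 0.48 CPM (UMIs of a gene per 1000000 UMIs of all genes) in the CD8 T cells of each library. Dendritic cell, mast cell, gamma-delta T cell, endothelial and B cell marker sums were higher there, at up to 23.0, 20.4, 18.4, 14.7 and 13.6 CPM. In regulatory T cells B cell markers summed to 135 to 166 CPM and dendritic cell markers to 33.5 to 63.4 CPM. Ncr1, which defines natural killer cells, had no UMI in conventional CD4 or regulatory T cells or in cluster 6. The 9 natural killer markers together, of which Ncr1 is 1, summed to 58.5 to 130 CPM in CD8 T cells and 30.7 to 201 CPM in cluster 6. Their sums were 5.43 to 21.0 CPM in conventional CD4 and 1.08 to 6.74 CPM in regulatory T cells.

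Levels are given as CPM of the UMIs summed over the named cells of one mouse. Because captured molecules per gene also depend on the transcript, CPM values are compared within a gene and not between genes. Clusters 0 to 8 are the submitters' own and had been formed from expression, so the levels across them are a description with no test. By lineage UMIs, clusters 0, 3, 4 and 6 were mostly CD8 (68.3% to 92.6% of cells in cluster 4), clusters 1, 2 and 7 mostly CD4, and clusters 5 and 8 mixed. All cells of cluster 4 were in S or G2M phase by the submitters' call.

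Perforin, the pore-forming protein, was highest in cluster 3, where Prf1 had a median of 831 CPM over the 6 libraries (531 to 1057). Cluster 0 followed with 454 CPM, cluster 6 with 415 CPM, cluster 5 with 345 CPM and cluster 4 with 237 CPM, and the library ranges of neighbours in this order overlapped. Cluster 4 (160 to 363 CPM) did not overlap the next in order, cluster 2, which had 88.0 CPM (38.0 to 110). Cluster 7 had 75.1 CPM, cluster 8 had 73.0 CPM over the 4 libraries with at least 20 cells, and cluster 1 had 22.1 CPM, and the ranges of these neighbours overlapped.

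Gzmb, the caspase-cutting granzyme, was not confined to the CD8 clusters. Its medians were 5567 CPM in cluster 3, 4540 CPM in the Foxp3-rich cluster 2 and 4276 CPM in cluster 6. Clusters 0, 4, 5 and 8 held 2480, 2224, 2100 and 1469 CPM. Clusters 7 and 1 were at 251 and 192 CPM. Every neighbouring pair in the Gzmb order overlapped across libraries. Prf1 and Gzmb therefore shared cluster 3 as their top cluster and cluster 1 as their lowest, while cluster 2 had the second highest median for Gzmb and the sixth for Prf1.

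Gzma, the tryptase-type granzyme, was concentrated in one small cluster. Cluster 6 held 5965, 6345 and 4901 CPM in the anti-ACBP libraries and 5510, 7603 and 6307 CPM in the isotype libraries. The next cluster, 3, had a median of 720 CPM (223 to 929), with no overlap. Clusters 4 and 5 followed with 383 and 276 CPM, clusters 8 and 7 with 72.7 and 57.9 CPM, and cluster 0, the largest CD8 cluster, with 41.3 CPM (28.6 to 87.5). Clusters 1 and 2 had 7.30 and 5.73 CPM, below the range of cluster 0. Of all Gzma UMIs in CD8 T cells, cluster 6 gave 49.8%, 59.0% and 58.0% with anti-ACBP and 58.2%, 49.0% and 48.4% with isotype, and cluster 3 gave 18.3% to 30.5% over the 6 libraries. The CD8 total of this gene is therefore carried mainly by those clusters in each mouse. Gzmb and Prf1 were spread differently: cluster 0 gave 31.5% to 46.9% of CD8 Gzmb UMIs and 34.5% to 54.6% of CD8 Prf1 UMIs.

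Gzmk, the second tryptase of chromosome 13, was also highest in cluster 6 (median 236 CPM, 189 to 450), but cluster 0 followed closely with 158 CPM (64.9 to 222). Clusters 4, 5, 3 and 8 held 98.2, 69.1, 58.6 and 43.8 CPM, each overlapping the next. Clusters 1, 7 and 2 were lower without overlap, at 21.3, 13.1 and 8.05 CPM. Cluster 0 gave 36.7% to 67.9% of all Gzmk UMIs in CD8 T cells. Gzmm, the methionine-cutting granzyme, was sparse: 430 UMIs were found in CD8 T cells of the anti-ACBP mice and 211 in those of the isotype mice. Its median in cluster 6 was 25.6 CPM (6.15 to 32.0), against 4.18 CPM in cluster 5, 4.17 CPM in cluster 0 and less elsewhere. The range of cluster 6 overlapped that of cluster 5 (up to 7.83 CPM) but lay above cluster 0 (up to 5.79 CPM) and all other clusters.

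**Figure D1:**
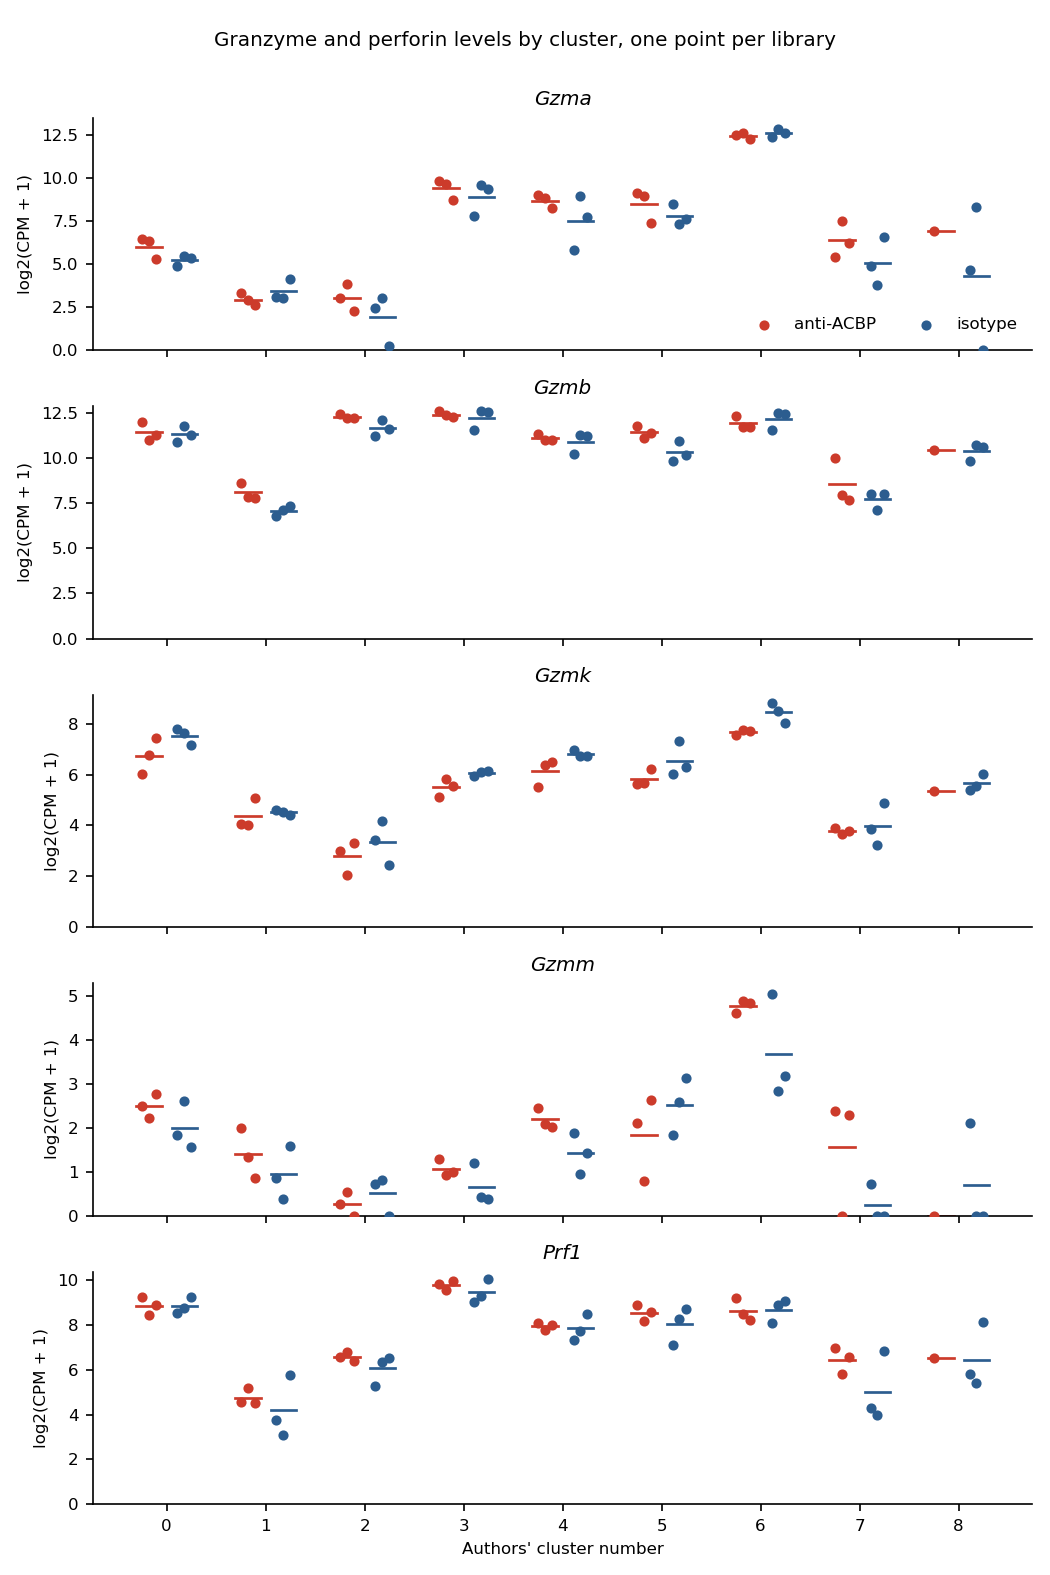
Level of each gene (log2 of CPM + 1, vertical axes) in each of the submitters' clusters 0 to 8 (horizontal axis); a point is one library, red for anti-ACBP and blue for isotype, and a bar is the mean of the group. Gzma peaks in cluster 6 (4901 to 7603 CPM), Gzmb is high in clusters 2, 3 and 6, and Prf1 falls off in clusters 1, 2, 7 and 8; only 1 anti-ACBP library had at least 20 cells in cluster 8.

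Between lineages, all 5 genes were higher in CD8 than in conventional CD4 T cells, and each was higher in 6 of 6 mice. The fits were made across all genes with edgeR's quasi-likelihood test on UMI sums with the mouse as a block, Benjamini-Hochberg adjusted at 0.05, and changes are log2 fold changes ± SE. At this threshold 23.9% of 11310 genes were higher in CD8 T cells, and 47.3% differed in either direction. Prf1 had 643, 392 and 522 CPM (anti-ACBP) and 345, 443 and 585 CPM (isotype) in CD8 T cells, against 62.0, 41.8 and 21.2 CPM (anti-ACBP) and 22.5, 40.1 and 193 CPM (isotype) in conventional CD4 T cells. CD8 and CD4 sums did not overlap for it. Its log2 fold change was 3.35 ± 0.42 (adjusted p = 0.00167). Gzmb differed by 3.37 ± 0.35 (adjusted p = 0.000729), Gzma by 3.94 ± 0.58 (adjusted p = 0.00327), Gzmk by 1.99 ± 0.30 (adjusted p = 0.00301) and Gzmm by 2.32 ± 0.19 (adjusted p = 4.2e-07). As folds these are 10.2 for Prf1, 10.3 for Gzmb, 15.3 for Gzma, 3.96 for Gzmk and 4.98 for Gzmm. All 5 passed in each of the 11 alternatives run. The smallest change of Gzmb was 2.71, with classes taken from lineage transcripts alone, an alternative chosen after seeing the data.

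Of 76 genes in 7 lists around the pathway, 73 were tested in this comparison, and 23 were higher and 28 lower in CD8 T cells. Of 9 tested granule partners, which process, package or tether granule proteases, 6 were higher and 2 lower (median 1.11, against 0.02 over all genes). Klrk1, the NKG2D receptor, was higher (1.60 ± 0.05). Granzyme inhibitors of the serpin family ran the other way, with 2 of 6 higher and 4 lower (median -0.81), and Serpinb1a was lower by 3.43 ± 0.09. Of 20 effector regulators 2 were higher and 12 lower, among them the activation-linked factors Bhlhe40 (-1.33 ± 0.05) and Batf (-1.23 ± 0.06) and the cytokine-signal transducers Stat5a (-1.38 ± 0.06) and Stat4 (-0.85 ± 0.05). Granule release genes split 2 higher and 3 lower of 10, other killing ligands and cytokines 3 and 4 of 9, granzyme-inducing receptors 6 and 3 of 14, and 2 of 5 tested genes of the granzyme C to G family were higher.

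Regulatory T cells were high in granzyme B and low in granzymes A and K. Gzmb had 4926, 4248 and 4059 CPM (anti-ACBP) and 2235, 4082 and 2962 CPM (isotype) in regulatory T cells, against 909, 164 and 283 CPM (anti-ACBP) and 116, 310 and 547 CPM (isotype) in conventional CD4 T cells. The regulatory sums were above every conventional sum. In the paired fit Gzmb was 3.45 ± 0.42 higher (adjusted p = 0.00151, 6 of 6 mice), when 22.9% of 10128 genes were higher and 22.5% lower. Because cluster 2 is part of the class definition, the fit was repeated with classes from Foxp3, Cd4 and Cd8 UMIs alone. The difference was then 2.82 for Gzmb (adjusted p = 0.00196), -2.84 for Gzma (adjusted p = 0.0121) and -2.17 for Gzmk (adjusted p = 0.00189).

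Gzma had 5.16, 5.69 and 13.4 CPM (anti-ACBP) and 2.97 and 6.57 CPM (isotype 1 and 2) in regulatory T cells, and no UMI in isotype 3, which allows up to 0.809 CPM. In conventional CD4 T cells it had 30.3, 3.43 and 37.1 CPM (anti-ACBP) and 23.0, 92.4 and 40.3 CPM (isotype). It was lower in regulatory T cells in 5 of 6 mice (-2.91 ± 0.62, adjusted p = 0.0129), and the call was lost without isotype 1 (adjusted p = 0.0522). Gzmk was lower in 6 of 6 mice (-1.96 ± 0.40, adjusted p = 0.00923), at 7.63, 1.63 and 15.8 CPM (anti-ACBP) and 7.45, 16.0 and 3.78 CPM (isotype) in regulatory T cells, against 13.9, 22.8 and 34.0 CPM (anti-ACBP) and 19.6, 53.4 and 56.7 CPM (isotype) in conventional CD4 T cells.

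Prf1 did not pass between regulatory and conventional CD4 T cells (0.53 ± 0.41, adjusted p = 0.362, higher in 5 of 6 mice), and without isotype 3, whose conventional CD4 T cells held 193 CPM, it did (0.94, adjusted p = 0.000964). Gzmm, with 8 UMIs in all in regulatory T cells, was too low to be tested there. Every tested member of the granzyme C to G family was lower in regulatory T cells (5 of 5, median -3.25, against -0.01 over all genes), and so were 5 of 6 granzyme inhibitors, with 1 higher, and 7 of 9 other killing ligands and cytokines. Of 73 listed genes tested, 20 were higher and 44 lower. Cst7, which encodes the inhibitor of granzyme-activating cathepsins called cystatin F, was higher (1.03 ± 0.07), as were the mannose 6-phosphate receptor M6pr (1.02 ± 0.07), Hopx (0.98 ± 0.06) and Nfil3 (1.13 ± 0.07). The interleukin-12 receptor chain Il12rb2 (-1.13 ± 0.06) and Id2 (-0.74 ± 0.04) were lower.

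**Figure D2:**
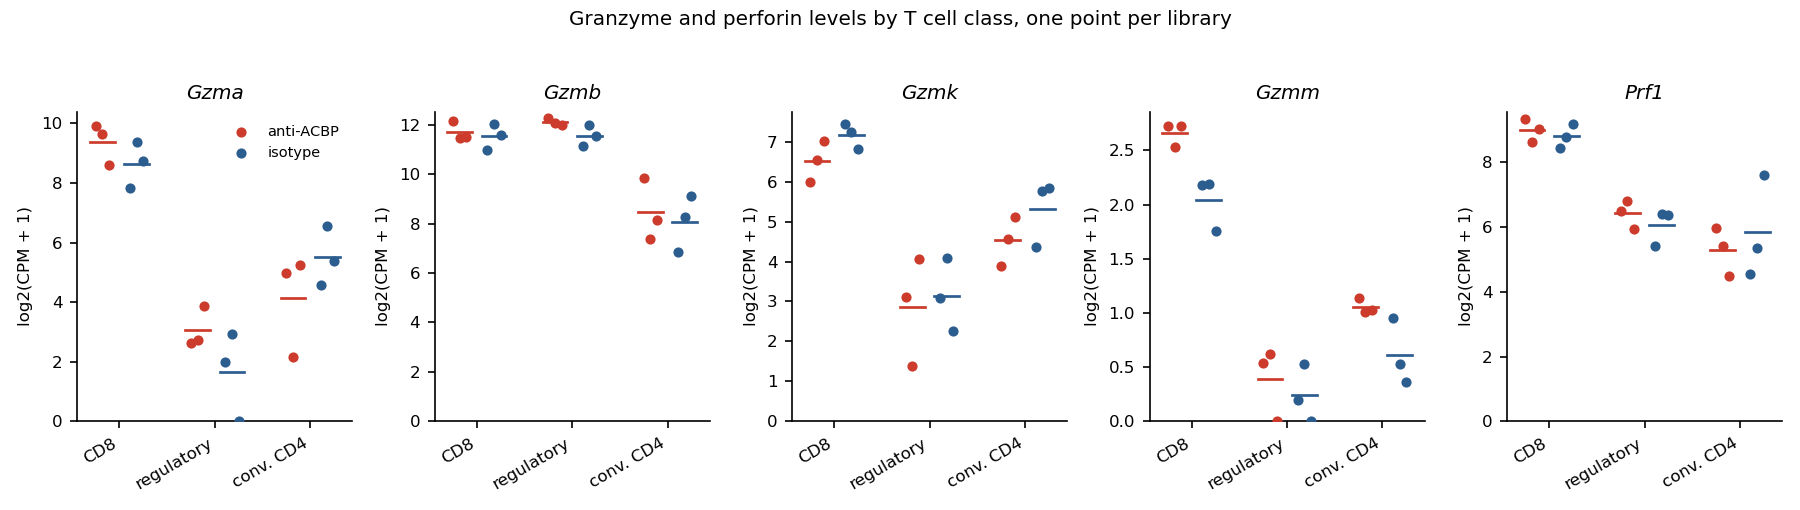
Level of each gene (log2 of CPM + 1, vertical axes) in CD8, regulatory and conventional CD4 T cells (horizontal axes); a point is one library, red for anti-ACBP and blue for isotype, and a bar is the mean of the group. CD8 sums lie above conventional CD4 sums for every gene, and regulatory T cells reach CD8 levels only for Gzmb (2235 to 4926 CPM).

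Single cells were compared after each was thinned to 2000 UMIs, since the median depth of CD8 T cells was 7272, 8270 and 7451 UMIs in the anti-ACBP libraries and 7336, 5284 and 5144 UMIs in the isotype libraries. CD8 T cells below 2000 UMIs, which were left out, numbered 105, 25 and 49 in the anti-ACBP libraries and 100, 82 and 94 in the isotype libraries. A Gzmb UMI was then found in 77.4% to 87.1% of regulatory T cells and in 59.5% to 77.4% of CD8 T cells over the 6 libraries. The CD4 T cells of cluster 1, the cells with the lowest Gzmb level, gave 7.09% to 22.5% at median depths of 5475, 6686 and 5628 UMIs (anti-ACBP) and 5821, 3859 and 3472 UMIs (isotype). Free RNA can give such a share, but its level was not measured. The barcodes outside the cell table held 671 to 2498 CPM of Gzmb in the anti-ACBP libraries and 520 to 1028 CPM in the isotype libraries. They numbered 4953 to 8146 per library and can include cells left out of that table. For Prf1 the shares were 6.16% to 15.1% of regulatory T cells and 0.122% to 1.93% of those cluster 1 cells. In cluster 6, 97.9% to 100% of cells held a Gzma UMI, against at most 0.964% of the cluster 1 CD4 T cells. Shares of conventional CD4 T cells with Gzma (0.882% to 2.03%) or Gzmb (8.72% to 28.7%) lay near those low values or above them. That class includes the cluster 1 CD4 T cells without a Foxp3 UMI, so the shares are not independent. How much of them is expression and how much free RNA was not tested.

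Granzyme B was detected more often in CD8 T cells with perforin than in those without it. Gzmb was detected in 79.2% to 90.1% of cells with Prf1 and in 50.8% to 68.4% of cells without it, and the share was higher with Prf1 in 6 of 6 mice. Within cluster 0 the shares were 72.7% to 86.2% with Prf1 and 44.2% to 62.2% without it (6 of 6 mice). Gzmb was in 76.1% to 87.9% of Gzma cells and in 55.3% to 74.5% of the others, also in 6 of 6 mice. Within cluster 0 that difference was smaller, with Gzmb in 61.3% to 79.7% of Gzma cells and 50.6% to 70.1% of the others, and isotype 3 went the other way (62.7% with Gzma and 63.6% without it). Gzmk was in 19.1% to 43.2% of Gzma cells and in 5.70% to 22.1% of the others (6 of 6 mice). Prf1 did not follow Gzma in this way, since it was in 27.8% to 48.0% of Gzma cells and in 30.1% to 42.6% of the others, and was higher with Gzma in only 2 of 6 mice. In cells with Gzmm the share with Prf1 was 14.3% to 28.6%, against 30.4% to 42.6% of cells without it, and lower with Gzmm in all 4 mice that had at least 20 Gzmm cells. Both Prf1 and Gzmb were detected in 24.2% to 37.6% of CD8 T cells, 3 or more of the 5 genes in 9.98% to 13.1%, and none of them in 15.4% to 29.3%. In regulatory T cells both Prf1 and Gzmb were detected in 5.33% to 14.8% of cells and none of the 5 in 12.6% to 21.4%. These pairs share the cell and its sampled UMIs, and no test was made on them.

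**Figure D3:**
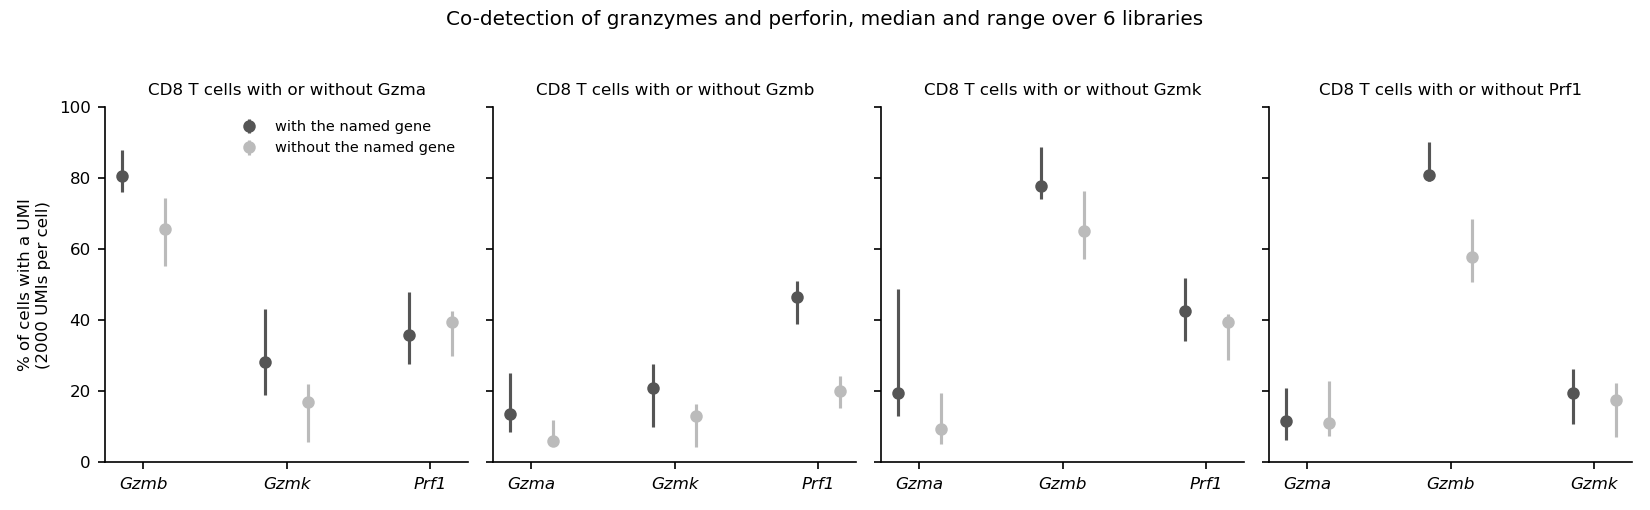
Share of CD8 T cells with a UMI of the gene on the horizontal axis (vertical axis, percent of cells after thinning to 2000 UMIs), among cells with (dark) or without (light) a UMI of the gene named above each panel; points are medians and lines ranges over 6 libraries. Gzmb is found in 79.2% to 90.1% of Prf1 cells, above the 50.8% to 68.4% of cells without Prf1, whereas Prf1 shares overlap between cells with and without Gzma.

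Over 52 sums of a cluster and a library, the pattern of Prf1 was closest to that of Nkg7 (Pearson r = 0.90 on log2 levels), which encodes a granule membrane protein, and then to those of Plek (0.89), Lat2 (0.89), Pik3ap1 (0.87) and Tm6sf1 (0.86), among 5554 genes. Genes close to Gzmb included 1700017B05Rik (0.90), Cst7 (0.84), the metallothionein gene Mt1 (0.82) and Bspry (0.82). Gzma was closest to Cd48 (0.77), Slamf7 (0.75), Ifitm1 (0.74), Chsy1 (0.74) and S100a4 (0.71), and Gzmk to Ly6c2 (0.87), Wdr95 (0.86), Zyx (0.85), the CD8 chain gene Cd8b1 (0.84) and Mctp2 (0.84). Gzmm was closest to the chemokine gene Ccl5 (0.76), Cd48 (0.76), Gzmk (0.67), Dnajc15 (0.67) and Trak1 (0.65). Among the 5 genes themselves the highest r was 0.78, for Gzmb with Prf1, and the lowest 0.25, for Gzmb with Gzmm. Sums from one library share its depth and sums of one cluster its lineage, so these values describe patterns only.

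Large and single clones of CD8 T cells differed in 3 of the 5 genes. A clone was the set of cells of a mouse whose only TRB chain had one V gene and one CDR3 nucleotide sequence, and clones of 10 or more cells (980 to 2478 cells per mouse) were set against clones of 1 cell (96 to 176 cells per mouse). In this fit 6.17% of 10032 genes were higher in large clones and 13.8% differed in either direction. Prf1 had 737, 456 and 579 CPM (anti-ACBP) and 381, 506 and 681 CPM (isotype) in large clones, against 316, 344 and 239 CPM (anti-ACBP) and 90.6, 81.2 and 168 CPM (isotype) in single clones. Every large-clone sum was above every single-clone sum, with a change of 1.46 ± 0.29 (adjusted p = 0.0312). The call for Prf1 was lost without anti-ACBP 1 (adjusted p = 0.0810), anti-ACBP 3 (0.0770), isotype 1 (0.0984), isotype 2 (0.0649) or isotype 3 (0.0901), with the change between 1.31 and 1.53 in these fits.

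Gzmb had 4869, 3368 and 3027 CPM (anti-ACBP) and 2184, 4360 and 3261 CPM (isotype) in large clones, against 3788, 1576 and 1775 CPM (anti-ACBP) and 1081, 2138 and 1884 CPM (isotype) in single clones. It was higher in large clones in 6 of 6 mice, by 0.82 ± 0.08 (adjusted p = 7.27e-06). Gzmk was higher in 6 of 6 mice, by 0.58 ± 0.12 (adjusted p = 0.00523), with 60.3 to 218 CPM in large clones and 50.3 to 121 CPM in single clones. Gzma (0.29 ± 0.45, adjusted p = 0.775, higher in 4 of 6 mice) and Gzmm (-0.65 ± 0.44, adjusted p = 0.397) did not pass. Within cluster 0 alone none of the 5 passed, with 0.51 for Gzmb (adjusted p = 0.0956), 0.44 for Gzmk (adjusted p = 0.141) and 1.09 for Prf1 (adjusted p = 0.398).

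Other transcripts moved with clone size in the same fit. Cd8a was 0.45 ± 0.08 higher and Cd4 (-1.82 ± 0.42) and Foxp3 (-2.53 ± 0.42) were lower in large clones, while Mki67, a proliferation marker, was 0.75 ± 0.19 higher. The 9 natural killer markers, of which 8 were found in large clones (Ncr1 was at 0) and 6 in single clones, summed to 64.8 to 71.8 CPM (anti-ACBP) and 81.7 to 131 CPM (isotype) in large clones and to 27.3 to 109 CPM (anti-ACBP) and 161 to 434 CPM (isotype) in single clones. Gzmb, Gzmk and Prf1 also passed in a fit of only the cells with no Cd4 and no Foxp3 UMI, an alternative chosen after seeing the data. The part of the Cd8a, Mki67 and natural killer transcripts in the granzyme differences was not tested. Of 73 listed genes 21 were higher and 8 lower, including 4 of 5 tested members of the granzyme C to G family (median 2.29, against -0.0052 over all genes) and 3 of 6 inhibitors. Serpinb6a (0.59 ± 0.09), Serpinb6b (0.54 ± 0.07), the interleukin-2 receptor chain Il2rb (0.44 ± 0.06), the natural killer receptor chain Klrd1 (0.57 ± 0.08) and Gnptab (0.72 ± 0.12), which tags lysosomal enzymes, were higher, and Bach2, a repressor of effector genes, was lower (-1.15 ± 0.14).

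Single large clones of one tumour differed widely among themselves. Over the 12, 5 and 6 clones of at least 50 CD8 cells in the anti-ACBP mice, the highest Gzma levels were 3277, 1887 and 1183 CPM with medians of 756, 1018 and 327 CPM. In the 9, 7 and 12 such clones of the isotype mice, the highest were 396, 3034 and 1586 CPM with medians of 136, 268 and 133 CPM. The lowest Gzma levels were 89.8 and 93.8 CPM in anti-ACBP 1 and 2 and 3.62, 6.93 and 51.4 CPM in the isotype mice. A clone of anti-ACBP 3 held no Gzma UMI. Relative to its lowest level Gzmb spanned less, from 2102 to 10626, 1360 to 4760 and 1730 to 4718 CPM (anti-ACBP) and from 660 to 2855, 3416 to 7022 and 1836 to 4292 CPM (isotype). Prf1 spanned 220 to 1792, 148 to 786 and 265 to 981 CPM (anti-ACBP) and 83.4 to 700, 309 to 702 and 269 to 1326 CPM (isotype). Gzmk reached highest levels of 213, 226 and 340 CPM (anti-ACBP) and 430, 238 and 462 CPM (isotype).

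In cycling CD8 T cells the perforin transcript was lower as a share of all UMIs. S or G2M cells, by the submitters' phase call, were set against G1 cells of the same mouse, and in this contrast 62.6% of 10952 genes differed and 32.1% were lower. Prf1 had 450, 312 and 366 CPM (anti-ACBP) and 253, 383 and 481 CPM (isotype) in S or G2M cells, against 764, 439 and 610 CPM (anti-ACBP) and 404, 511 and 717 CPM (isotype) in G1 cells. It was lower in cycling cells in 6 of 6 mice, by a log2 change of -0.62 ± 0.05 (adjusted p = 3.48e-07). The change was -0.37 without cluster 4 and -0.23 within cluster 0, and it passed in each of 10 alternatives. S or G2M cells held more UMIs per cell than G1 cells in each library. In isotype 3, 1269 S or G2M cells held 10419908 UMIs and 1633 G1 cells held 8162322. The levels are relative to all UMIs, and UMIs of a gene per cell were not compared between phases. This limit holds for every gene of this contrast.

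Gzmk was also lower (-0.16 ± 0.06, adjusted p = 0.0329) but in 4 of 6 mice, and the call was lost without anti-ACBP 1 (adjusted p = 0.120), isotype 2 (0.101), isotype 3 (0.0775) or cluster 4 (0.630) and within cluster 0 (0.773). Gzma (0.09 ± 0.13, adjusted p = 0.559), Gzmb (-0.12 ± 0.07, adjusted p = 0.222) and Gzmm (-0.25 ± 0.15, adjusted p = 0.160) did not pass. Gzma did so without cluster 4 (0.50, adjusted p = 0.0178), Gzmb without anti-ACBP 2 (-0.17, adjusted p = 0.00944) and Gzmm without anti-ACBP 3 (-0.40, adjusted p = 0.0388). Mki67 was 4.96 ± 0.05 higher in S or G2M cells. Of 73 listed genes 1 was higher and 49 lower, including all 6 tested inhibitors (median -0.31), 7 of 9 granule partners (median -0.31) and 14 of 20 effector regulators (median -0.23), with all genes at a median of -0.03. Among them were the granule proteoglycan gene Srgn (-0.35 ± 0.03), the lymphocyte cathepsin gene Ctsw (-0.30 ± 0.02), the death ligand gene Fasl (-0.45 ± 0.03), Il2rg (-0.40 ± 0.03), Hopx (-0.63 ± 0.03) and Bach2 (-0.93 ± 0.07).

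**Figure D4:**
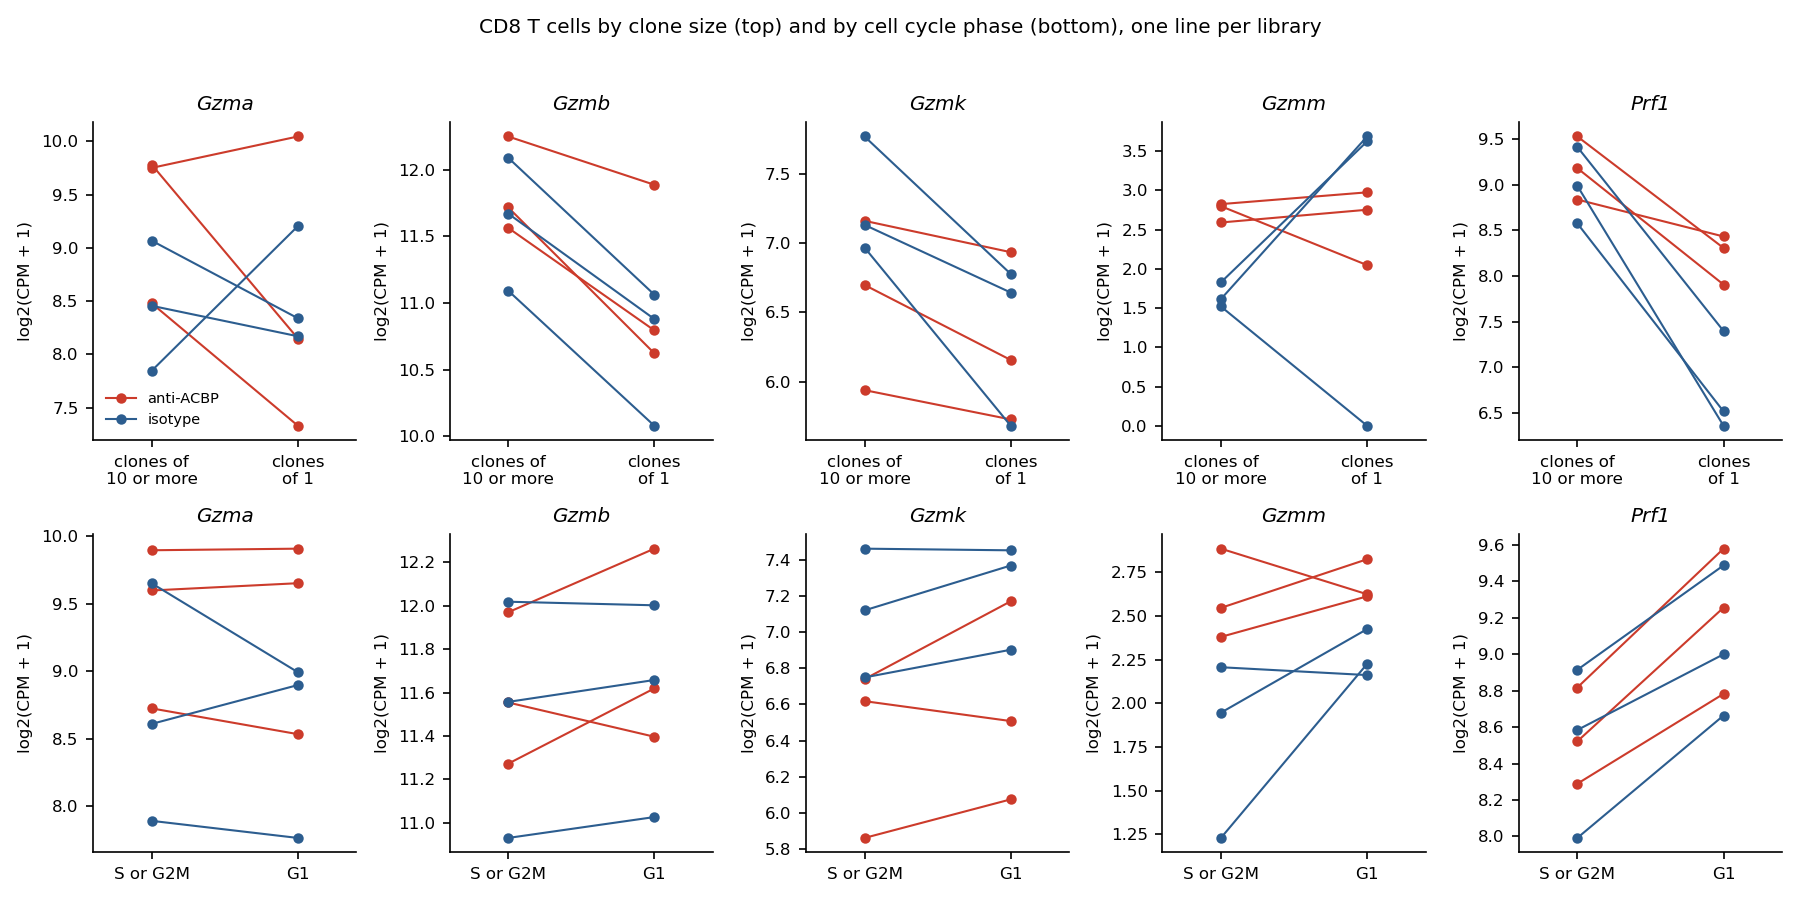
Level of each gene (log2 of CPM + 1, vertical axes) in CD8 T cells of clones of 10 or more cells and of 1 cell (top), and in S or G2M and G1 cells (bottom); a line joins the pair of values of one library, red for anti-ACBP and blue for isotype. Gzmb, Gzmk and Prf1 are higher in large clones in all 6 libraries, and Prf1 is lower in S or G2M cells in all 6.

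The antibody comparison asked which transcripts of tumour T cells differ when ACBP is neutralised under the same chemo-immunotherapy. The fits set 3 mice against 3. In CD8 T cells none of the 5 genes passed, at a background of 0.933% of 11790 genes (110 genes). With edgeR 0 of 5 passed after adjustment and 1 of 5, Gzmm, at an unadjusted p under 0.05, and with DESeq2 0 of 5 passed. Prf1 had 643, 392 and 522 CPM with anti-ACBP, against 345, 443 and 585 CPM with isotype, and the groups overlapped (0.16 ± 0.25, adjusted p = 0.786). Gzmb averaged 3426 ± 988 CPM with anti-ACBP and 3088 ± 1047 CPM with isotype (SD, n = 3 each), from 4566, 2811 and 2901 CPM against 2032, 4125 and 3108 CPM. Anti-ACBP 1 was the highest and isotype 1 the lowest, and the groups overlapped (0.13 ± 0.31, adjusted p = 0.865).

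Gzma and Gzmk leaned in opposite directions in CD8 T cells without passing. Gzma had 957, 793 and 388 CPM with anti-ACBP, against 224, 663 and 427 CPM with isotype (0.69 ± 0.48, adjusted p = 0.507). Anti-ACBP 3 lay below 2 isotype libraries. Gzmk had 62.8, 92.7 and 130 CPM with anti-ACBP, against 175, 151 and 112 CPM with isotype (-0.65 ± 0.28, adjusted p = 0.297), and anti-ACBP 3 and isotype 3 overlapped. Gzmm had 5.60, 4.77 and 5.60 CPM with anti-ACBP, against 3.53, 3.57 and 2.37 CPM with isotype. Its groups did not overlap, as in 24.3% of all genes tested, and the change was 0.73 ± 0.19 (adjusted p = 0.114). For Gzma and Gzmk the shares of CD8 T cells with a UMI at 2000 UMIs leaned the same way as the levels. For Gzmb and Prf1 the mean shares were lower with anti-ACBP, opposite to the sign of their log2 fold changes. Gzma was in 22.1%, 18.3% and 10.9% of cells with anti-ACBP, against 7.06%, 11.6% and 9.44% with isotype (exact two-sided permutation test, p = 0.2, adjusted p = 0.6 over the 15 shares tested), where the smallest p for 3 against 3 is 0.1. Gzmk was in 8.66%, 11.3% and 19.9% of cells with anti-ACBP, against 23.6%, 20.9% and 17.0% with isotype (exact permutation p = 0.2, adjusted p = 0.6). Unthinned means were 22.8% and 12.3% for Gzma and 27.5% and 35.7% for Gzmk, in anti-ACBP and isotype mice.

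Other CD8 measures differed between the groups beside these genes. Mki67 had 178, 125 and 132 CPM with anti-ACBP, against 200, 253 and 269 CPM with isotype (-0.75 ± 0.17, adjusted p = 0.0894). The 5 proliferation markers summed to 380 to 479 CPM with anti-ACBP and 531 to 728 CPM with isotype, the 9 natural killer markers to 58.5 to 80.7 CPM and 105 to 130 CPM, and the 6 naive or memory markers to 524 to 647 CPM and 386 to 455 CPM. Cluster 6, the top cluster of Gzma, made up 9.38%, 8.02% and 5.69% of CD8 T cells with anti-ACBP, against 2.92%, 4.73% and 3.82% with isotype, without overlap. Fits of G1 cells alone and without cluster 1 were among the 16 alternatives of the CD8 antibody contrast. In all 16, Gzma and Gzmm were higher and Gzmk lower with anti-ACBP, and 0 passed for any of them. Beyond these fits, the part of the listed measures in the granzyme values was not tested. Of the 73 listed genes tested, 2 were higher and 2 lower. Higher were Il7r (0.50 ± 0.08, adjusted p = 0.0418) and Id3 (1.69 ± 0.29, adjusted p = 0.0430), which mark memory-type T cells. Lower were Nfil3 (-0.64 ± 0.07, adjusted p = 0.00947) and Prdm1 (-1.33 ± 0.14, adjusted p = 0.00947), which encodes the transcriptional repressor Blimp-1. These calls rested on few libraries: with 1 of the 6 left out in turn, Nfil3 and Prdm1 passed in 3 of 6 fits, Il7r in 2 and Id3 in 1, and none of them passed without anti-ACBP 1, anti-ACBP 2 or isotype 3. The highest adjusted p was 0.0798 for Nfil3 or Prdm1, 0.184 for Il7r and 0.204 for Id3. Granule partners (median -0.03), release genes (-0.03), inhibitors (0.08) and the granzyme C to G family (0.14) had no call, with the median of all genes at -0.0042. That family was split. Gzmd (0.84 ± 0.21, adjusted p = 0.126) and Gzme (0.86 ± 0.26, adjusted p = 0.175) leaned higher, and Gzmc, Gzmf and Gzmg changed by 0.11, 0.14 and -0.02. They are named after their values were seen.

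In conventional CD4 T cells 0 of 4 tested genes passed with edgeR, 0 at an unadjusted p under 0.05 and 0 with DESeq2, at a background of 0.0651% of 10755 genes. Gzmb changed by 0.53 ± 0.94, Prf1 by -0.91 ± 1.03, Gzma by -1.06 ± 0.92 and Gzmk by -0.83 ± 0.54 on the log2 scale, with overlapping groups and adjusted p between 0.578 and 0.868. No gene of the lists passed (0 of 73). Gzmm had 1.20, 1.01 and 1.04 CPM with anti-ACBP, against 0.932, 0.441 and 0.288 CPM with isotype. Its groups did not overlap, as in 20.3% of the genes tested, and it was too low for the test.

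In regulatory T cells 0 of 4 tested genes passed with edgeR, 0 at an unadjusted p under 0.05 and 0 with DESeq2, against 2.46% of 10052 genes. Gzmb had 4926, 4248 and 4059 CPM with anti-ACBP, against 2235, 4082 and 2962 CPM with isotype. The highest isotype library, isotype 2, lay between the anti-ACBP values, and the means were 4411 ± 456 and 3093 ± 930 CPM (SD, n = 3 each). The change was 0.51 ± 0.23 (adjusted p = 0.284), and without isotype 2 it was 0.76 (adjusted p = 0.0135). Prf1 had 90.3, 112 and 60.9 CPM with anti-ACBP, against 41.8, 83.1 and 82.0 CPM with isotype (0.40 ± 0.35, adjusted p = 0.599). Gzma changed by 1.19 ± 0.83 (adjusted p = 0.489) and Gzmk by -0.26 ± 0.84 (adjusted p = 0.904).

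The lists around the pathway gave 6 higher and 0 lower genes of 70 in regulatory T cells. Serpinb9, which encodes the inhibitor of granzyme B, was higher (1.08 ± 0.13, adjusted p = 0.00384). Srgn (0.44 ± 0.08, adjusted p = 0.0208), the effector regulators Irf4 (0.65 ± 0.11, adjusted p = 0.0166), Tbx21 (0.77 ± 0.13, adjusted p = 0.0215) and Klf2 (0.59 ± 0.11, adjusted p = 0.0259) and the cytokine receptor gene Il21r (0.51 ± 0.10, adjusted p = 0.0248) were higher too. With 1 of the 6 libraries left out in turn Serpinb9 passed in 6 of 6 fits (highest adjusted p = 0.0304). Irf4, Srgn and Il21r passed in 3 of 6, and lost the call without anti-ACBP 2, anti-ACBP 3 or isotype 3 (highest adjusted p 0.0851, 0.105 and 0.115). Tbx21 and Klf2 passed in 2 of 6, and lost it without isotype 1 as well (0.0937 and 0.104). List medians were 0.72 for inhibitors, 0.36 for effector regulators, 0.22 for granule partners and 1.49 for the 4 tested genes of the granzyme C to G family, none of which passed, with all genes at 0.0047. Mki67 had 168, 149 and 83.5 CPM with anti-ACBP, against 373, 197 and 426 CPM with isotype (-1.29 ± 0.41, adjusted p = 0.190). The 6 naive or memory markers summed to 1078 to 1208 CPM with anti-ACBP and 685 to 926 CPM with isotype. A fit of G1 cells alone was among the 15 alternatives of this contrast, and Gzma, Gzmb and Prf1 were higher with anti-ACBP in all 15. Beyond that fit, the part of Mki67 or of the naive or memory markers in the gene changes was not tested.

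Within clusters, 1 member changed with the antibody after adjustment, Gzmk in cluster 6. It had 189, 213 and 210 CPM with anti-ACBP, against 450, 365 and 259 CPM with isotype. The groups did not overlap, as in 19.9% of the 7252 genes tested, and isotype 3 lay closest to the anti-ACBP values. The change was -0.80 ± 0.16 (adjusted p = 0.0130, 0.573-fold), where 0.607% of genes were lower and 2.55% changed in either direction. It was negative in 13 of 13 alternatives (-0.99 to -0.59) and passed in 10 (adjusted p between 1.09e-07 and 0.0804), and the call was lost without anti-ACBP 1 (adjusted p = 0.0674), anti-ACBP 2 (0.0597) or isotype 2 (0.0804). In the CD8 T cells of the cluster alone it was -0.85 (adjusted p = 0.0157). A Gzmk UMI was in 22.7%, 26.4% and 27.7% of cluster 6 cells with anti-ACBP, against 48.6%, 45.0% and 34.9% with isotype at 2000 UMIs, from 145 to 394 cells per anti-ACBP library and 114 to 118 per isotype library. The cluster 1 CD4 T cells gave 1.17% to 4.04%.

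Gzma, the gene that fills cluster 6, did not pass there (-0.15 ± 0.15, adjusted p = 0.729), nor did Gzmb (-0.23 ± 0.36, adjusted p = 0.852) or Prf1 (0.02 ± 0.41, adjusted p = 0.991). Gzmm in cluster 6 had 23.4, 28.7 and 27.9 CPM with anti-ACBP, against 32.0, 6.15 and 8.05 CPM with isotype (0.68 ± 0.41, adjusted p = 0.512), and passed without isotype 1 (1.90, adjusted p = 0.00574). In the same cluster naive or memory markers summed to 583 to 640 CPM with anti-ACBP and 349 to 359 CPM with isotype, proliferation markers to 104 to 144 CPM and 148 to 209 CPM, and gamma-delta T cell markers, with 3 of 5 found, to 4.61 to 14.7 CPM and 22.5 to 29.2 CPM. Natural killer markers, with 5 of 9 found, summed there to 31.5 to 33.2 CPM with anti-ACBP and 30.7 to 201 CPM with isotype. Whether these sums bear on Gzmk was not tested.

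Elsewhere Gzmk was also lower on average but did not pass. It had 64.9, 107 and 174 CPM with anti-ACBP, against 222, 199 and 142 CPM with isotype in cluster 0 (-0.75 ± 0.36, adjusted p = 0.389; background 1.24%). In cluster 3 it had 34.2, 55.8 and 46.4 CPM with anti-ACBP, against 61.3, 67.8 and 69.6 CPM with isotype (-0.61 ± 0.16, adjusted p = 0.178; background 0.218%), and in cluster 4 it had 44.5, 81.2 and 90.6 CPM with anti-ACBP, against 125, 106 and 106 CPM with isotype (-0.69 ± 0.28, adjusted p = 0.442; background 0.919%). The groups did not overlap in clusters 3 and 4, as in 17.4% and 17.9% of genes. Cluster 3 passed with no filter on low counts (adjusted p = 0.000181), and cluster 4 with DESeq2 (adjusted p = 0.0264). In cluster 5 the change was -0.84 ± 0.39 (adjusted p = 0.636). Gzmm in cluster 4 went the other way without overlap, at 4.49, 3.27 and 3.05 CPM with anti-ACBP, against 2.67, 0.922 and 1.68 CPM with isotype, and did not pass (0.93 ± 0.38, adjusted p = 0.355).

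Gzmb was above isotype without overlap in 3 clusters and passed in none with edgeR, although its unadjusted p was 0.0356 in cluster 2, 0.0439 in cluster 5 and 0.00947 in cluster 1. In cluster 2 it had 5613, 4726 and 4752 CPM with anti-ACBP, against 2413, 4355 and 3124 CPM with isotype (0.59 ± 0.22, adjusted p = 0.197), where 4.1% of genes passed and 26.8% did not overlap. It passed there with DESeq2 (adjusted p = 0.00888), without isotype 2 (0.84, adjusted p = 0.00375) and without the cells the submitters' DF1 column marks FALSE (0.67, adjusted p = 0.0296). CD8 cells made up 6.12%, 8.07% and 6.75% of cluster 2 with anti-ACBP, against 4.47%, 2.08% and 5.28% with isotype. Cd8a was 1.78 ± 0.38 (adjusted p = 0.0630) and Cd8b1 1.08 ± 0.24 (adjusted p = 0.0576) there, and their part in the granzyme values of cluster 2 was not tested. In cluster 5 Gzmb had 3527, 2213 and 2647 CPM with anti-ACBP, against 920, 1987 and 1129 CPM with isotype (1.06 ± 0.38, adjusted p = 0.569; 14.7% of genes did not overlap and 0.207% passed). Over 14 alternatives the change ran from 0.25 to 1.44 and passed in 0. CD8 cells made up 60.0%, 52.3% and 60.7% of this cluster with anti-ACBP, against 52.6%, 39.8% and 57.9% with isotype. In cluster 1 Gzmb had 395, 229 and 223 CPM with anti-ACBP, against 109, 140 and 161 CPM with isotype (1.07 ± 0.28, adjusted p = 0.212; 19.6% and 0.192%). CD8 cells made up 15.8%, 23.8% and 17.2% of cluster 1 with anti-ACBP, against 15.1%, 5.75% and 20.6% with isotype. Fits of the CD8 T cells alone and of the CD4 T cells alone were among the 14 alternatives in clusters 1 and 5. Gzmb was higher with anti-ACBP in all 14 in each cluster, by 0.72 to 1.29 in cluster 1, and passed in 0. How much of the Gzmb values came from the CD8 share was not tested. The Gzmb levels of cluster 1 lie below those of the barcodes outside the cell table, which can include cells and are no measure of free RNA alone.

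Gzma in cluster 0 had 87.5, 78.8 and 37.8 CPM with anti-ACBP, against 28.6, 43.1 and 39.5 CPM with isotype (0.86 ± 0.35, adjusted p = 0.305), and it passed without anti-ACBP 3 (1.17, adjusted p = 0.0172). In clusters 3, 4 and 5 it changed by 0.36 ± 0.59, 0.71 ± 0.85 and 0.80 ± 0.62 and did not pass. Prf1 changed by between -0.01 (cluster 4) and 1.42 (cluster 7) over clusters 0 to 7, with 0 calls by edgeR, by DESeq2 or at an unadjusted p under 0.05, and cluster 7 (background 0.439%) passed without isotype 3 (2.40, adjusted p = 0.00187). In cluster 8, where 1 anti-ACBP library had at least 20 cells, 0 of 4 tested genes passed (background 0.425%), 0 at an unadjusted p under 0.05 and 0 with DESeq2. From the granzyme C to G family, Gzmc (85.3, 46.4 and 56.9 CPM with anti-ACBP, against 15.2, 19.5 and 14.1 CPM with isotype) and Gzme, passed in cluster 2 (1.96 ± 0.26, adjusted p = 0.0147, and 1.75 ± 0.37, adjusted p = 0.0320), beside the larger share of CD8 cells given above for that cluster. Gzmc lost the call without anti-ACBP 3, isotype 1 or isotype 3 (highest adjusted p = 0.0665), and Gzme lost it without isotype 3 or any one of the anti-ACBP libraries (highest adjusted p = 0.106). In regulatory T cells, called by a Cd4 majority, Gzmc was 1.46 ± 0.57 and did not pass (adjusted p = 0.266). Gzmf passed in cluster 4, with 1719, 1627 and 1757 CPM with anti-ACBP, against 1344, 1094 and 1089 CPM with isotype (0.51 ± 0.08, adjusted p = 0.0124). It lost the call without isotype 3 or any one of the anti-ACBP libraries (highest adjusted p = 0.0840). Gzmc also passed in cluster 8 (3.05 ± 0.48, adjusted p = 0.0214), with 269 CPM in the 1 anti-ACBP library there, against 21.6, 35.9 and 74.3 CPM with isotype. These family genes are named after their values were seen.

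Whether the change with the antibody differed between classes was also tested. In tests of the difference itself, with the mouse as a block, 0 of 5 passed in each of 3 contrasts, where 0 (CD8 minus conventional CD4), 0.455% (CD8 minus regulatory) and 0.0515% (regulatory minus conventional CD4) of 11651 genes passed. At an unadjusted p under 0.05 the number was 0 of 5 in each, and with DESeq2 it was also 0. The smallest p was that of Gzma in CD8 minus conventional CD4 T cells (1.66 ± 0.80, adjusted p = 0.914).

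**Figure D5:**
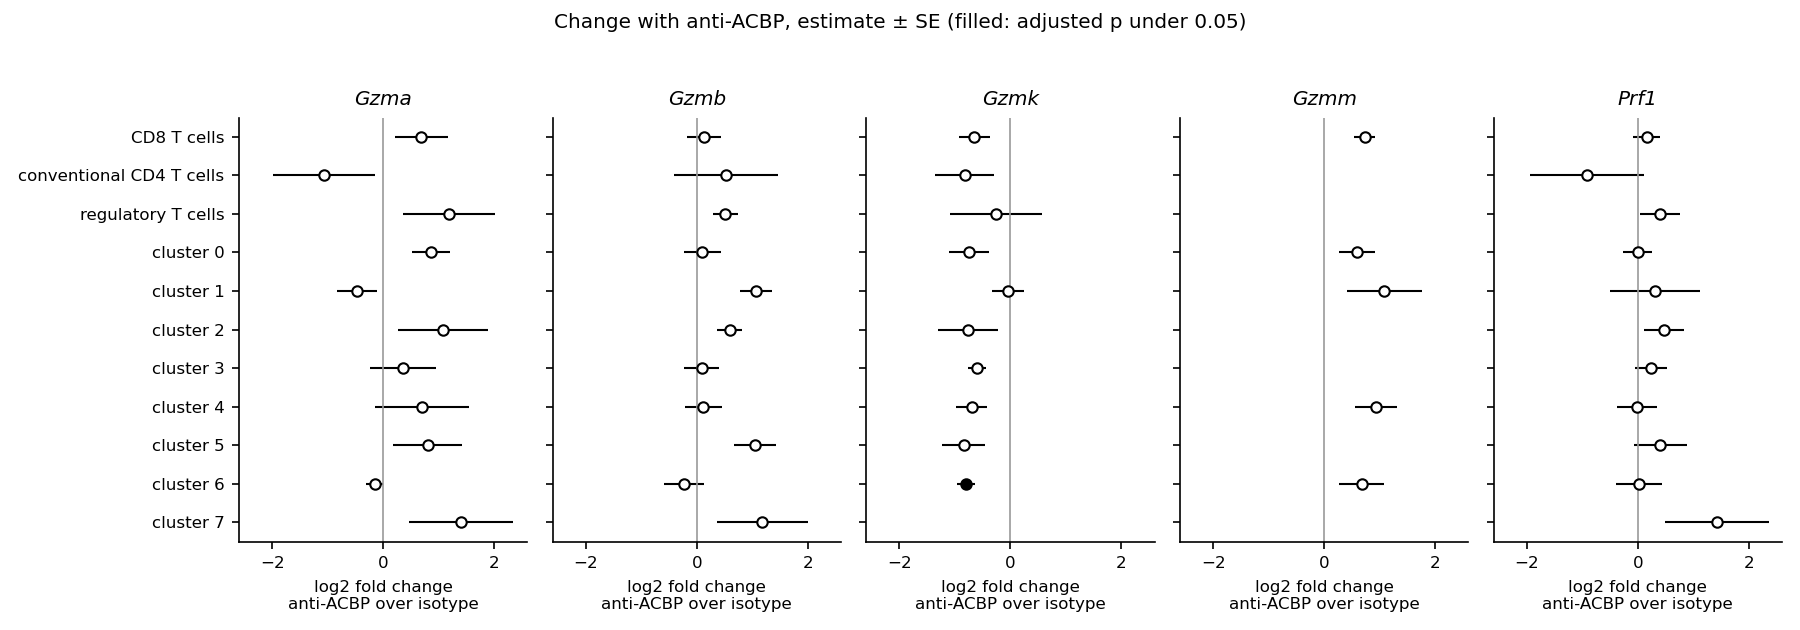
Change with the antibody (log2 fold change, anti-ACBP over isotype, horizontal axes) of each gene in 3 T cell classes and clusters 0 to 7 (rows); points are edgeR estimates, lines ± SE, and a filled point has an adjusted p under 0.05. The filled point is Gzmk in cluster 6 (-0.80 ± 0.16), and a row without a point was too low to be tested.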

How the data were processed

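The deposited files gave raw UMI counts per gene and cell barcode for 6 libraries, 1 per mouse; per the submitters' processing notes they were made with Cell Ranger 7.0.0 and Seurat on mm10. The authors' cell table gave cluster, phase and DF1, and the deposited contig files gave receptor chains with UMI counts. What DF1 stands for was not stated in any source read. No further doublet caller was run on the deposited cells, and 1028 cells with 2 or more TRB chains were left out as an alternative. Counts were summed per mouse over the named cells, with 660 receptor and immunoglobulin segments left out of the fits, and subsets under 20 cells in a library were not used. Fits used edgeR 4.0.16 (TMM, filterByExpr, robust quasi-likelihood; DESeq2 1.42.0 as an alternative) on all genes, with Benjamini-Hochberg adjustment at 0.05. SE is the log2 fold change divided by the square root of F. Contrasts between classes, clones and phases had the mouse as a block. Shares were compared by exact permutation of mice. Depth limits low genes most, and a level of 0 is given with the floor of 3 UMIs, which covers counting error only. The edgeR fits were tested on simulated counts for the antibody contrast in each class and for large clones against single clones. The simulated means had no mouse effect, so these runs do not bear on the mouse block, and no result here rests on them. The other contrasts and the cell-level steps were not tested in this way. The genes, the 7 lists and the tests were chosen with earlier results of these data known. Named genes are the 5 members, up to 6 passing list genes of smallest p in each comparison of classes, clones or phases, the 5 nearest genes by correlation (1 of those of Gzmb is not reported here), and Cd4, Cd8a, Cd8b1, Foxp3 and Mki67. Alternatives were DESeq2, its size factors in edgeR, no filter on low counts, each library left out, a replicate block, other cell sets and other thinning depths. Those chosen after seeing the data were classes from lineage transcripts alone, cells with no UMI of another lineage, class contrasts without cells of 2 or more TRB chains, the CD8 T cells of cluster 6 and phases within cluster 0.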

Additional observations from a re-analysis of the deposited data

How the results depend on the processing

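Over all 86 fits of a member, 944 of 1019 alternative log2 fold changes kept their sign and 75 turned it, in 33 fits, none of which had passed: 15 turned between classes, clones, phases or the antibody groups of a class, 41 between antibody groups within a cluster, and 19 in the difference of the antibody effect between classes. Of 154 alternatives of the fits that passed 17 no longer passed, and of 865 alternatives of the others 15 passed. Levels in 9 of 30 pairs of a gene and a cluster moved by more than 1 SD when only CD8 T cells were used, all in clusters 1 and 5, and the top cluster of each gene was the same. The number of members passing between anti-ACBP and isotype became 1, in place of 0, in cluster 2 with DESeq2 or without cells marked FALSE in DF1, in cluster 3 without a filter on low counts, and in cluster 4 with DESeq2. Between large and single clones it was 0 within cluster 0 (3 over all CD8 T cells), and between phases 1 (2 over all CD8 T cells). Leaving out 1 library gave 0 to 1 members passing in regulatory T cells and in clusters 0, 2, 7 and 8 (without isotype 2 in cluster 8), 0 to 2 in cluster 6, and 1 to 3 between phases. Values that did not pass and turned included Gzmk in regulatory T cells (0.24 without cells marked FALSE in DF1), Gzma in clones (-0.36) and phases (-0.16) within cluster 0, Gzmb in phases (0.10 without cluster 4, 0.0660 within cluster 0), Gzmm in phases (0.34 within cluster 0), Gzma in cluster 4 (-2.61 in its CD4 T cells), and Prf1 in cluster 6 (-0.0198 with DESeq2, -0.0543 without cells of 2 or more TRB chains, -0.0502 in its CD8 T cells). The cause of these changes was not tested.

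Leaving out 1 library moved log2 fold changes of Gzmb between -0.15 and 0.38 in CD8 T cells and between -0.52 and 1.13 in conventional CD4 T cells, of Prf1 between -0.0436 and 0.37 in CD8 T cells, between -1.40 and 0.45 in conventional CD4 T cells and between -0.38 and 0.22 in cluster 6, of Gzmk between -0.90 and 0.28 in regulatory T cells, and of Gzma between -0.0193 and 0.66 in cluster 3 and between -0.0143 and 0.17 between phases. Over all alternatives that turned within clusters 0 to 5, Prf1 spanned -0.23 to 0.22 in cluster 0, -0.50 to 1.36 in cluster 1, -0.61 to 0.40 in cluster 4 and -1.80 to 0.77 in cluster 5, Gzmb -0.26 to 0.35 in cluster 0, -0.17 to 0.25 in cluster 3 and -0.42 to 0.28 in cluster 4, and Gzmk -0.50 to 0.14 in cluster 1 and -1.09 to 0.0869 in cluster 2. Differences in the share of cells with a UMI turned, in percentage points, for Gzmb (1.61 without thinning) and Prf1 (0.493 at 1000 UMIs, 3.00 without thinning) in CD8 T cells, and for Gzmb (-1.22 without thinning) and Gzmm (-0.0508 at 1000 UMIs) in regulatory T cells. Leaving out 1 library they spanned -0.558 to 0.0170 for Gzma, -1.77 to 7.36 for Gzmb in conventional CD4 T cells, -5.76 to 3.21 for Gzmb and -3.89 to 2.89 for Prf1 in CD8 T cells, and -0.669 to 4.16 for Gzmb, -0.805 to 0.0523 for Gzmk and -0.218 to 3.54 for Prf1 in regulatory T cells. With Spearman in place of Pearson, 3 of the 5 nearest genes of Gzma, 0 of Gzmb, 3 of Gzmk, 1 of Gzmm and 3 of Prf1 were also among the nearest 5.

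Replicate numbers did not pair the mice, with correlations of same-numbered deviations of 0.18, -0.03 and -0.09 in CD8 T cells. A fit with the replicate block gave 1 member passing in cluster 3 (Gzmk -0.62, adjusted p = 0.00130), -0.78 for Gzmk in cluster 6 (adjusted p = 0.0205) and -0.0256 for Prf1 in cluster 6, and of all genes it called 104 for CD8 T cells, 9 for conventional CD4 T cells and 173 for regulatory T cells. Counts over all genes moved more than those of the members: 110 genes in CD8 T cells became 504 with DESeq2, 320 without a filter and 0 to 696 with 1 library left out, 7 in conventional CD4 T cells became 129, 244 and 2 to 124, and 247 in regulatory T cells became 711 without a filter and 23 to 615 with 1 library left out. In cluster 6 the 185 genes became 114 with DESeq2, 413 without a filter and 82 to 351 with 1 library left out. With 3 mice a group and 4 to 24 UMIs of Gzmm in conventional CD4 or regulatory T cells of either group, small changes of low genes were not detectable at this depth.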
